A study of Mus musculus with 16 samples.

Results

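The 9 genes of prostaglandin handling described here were followed across the hearts of the series: the cyclooxygenases Ptgs1 and Ptgs2, the synthases Ptges, Ptges2, Ptgis and Ptgds, the receptors Ptger4 and Ptgir, and the dehydrogenase Hpgd. They were taken by gene symbol from the count tables of all 16 libraries, where 9 of the 9 symbols were present among 55278, and 9 of 9 passed the filter on low counts that left 18713 genes for testing. The hearts came from male mice on a C57BL/6J background, aged 8 to 12 weeks, in 4 groups of 4 libraries. PPARα-deficient hearts, in which the nuclear receptor PPARα (gene Ppara) was removed in cardiomyocytes, came from mice injected intraperitoneally with lipopolysaccharide (LPS, a bacterial cell wall component) at 5 mg/kg or with phosphate buffered saline (PBS). Ppara-flox hearts, which carry the floxed allele and serve as their genotype control, came from mice given LPS or PBS in the same way, and the tissue was taken 12 h later. The labels do not name the Cre driver, and no group carried Cre without the floxed allele, so that the deletion and Cre itself cannot be told apart. RNA was read in bulk, so fewer cells of a type and less RNA per cell cannot be told apart either.

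Prostaglandins are short-lived lipid signals. Cyclooxygenases convert arachidonic acid, freed from membranes by phospholipases, to prostaglandin H2, and a terminal synthase then turns it into prostaglandin E2, prostacyclin, prostaglandin D2 or another prostanoid that acts on its own G protein-coupled receptors. Ptgs1 is the constitutively expressed cyclooxygenase and Ptgs2 the one induced by inflammatory stimuli, Ptges encodes the inducible microsomal prostaglandin E synthase that often works with Ptgs2, and Hpgd encodes the enzyme that starts the breakdown of prostaglandins E2 and F2α.

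The extraction text of the labels speaks of islets while every tissue label says heart. The islet hormone genes Ins1, Ins2, Gcg, Sst, Pyy and Iapp were at 0 in all 16 libraries, whereas 8 cardiomyocyte markers summed to 31584 to 67408 CPM (counts scaled to the same library total). Ppara, the deleted gene, ranged from 4.25 to 11.9 CPM in PPARα-deficient LPS hearts, against 7.23 to 14.7 CPM in Ppara-flox LPS hearts, and after PBS from 11.4 to 17.6 CPM with the deletion, against 37.4 to 59.3 CPM in Ppara-flox hearts. The genotypes were thus separated by Ppara in the PBS hearts, while their ranges overlapped in the LPS hearts. Esr1, the estrogen receptor gene, separated the genotypes in both treatments, at 28.3 to 152 CPM in PPARα-deficient LPS hearts, against 0.0522 to 0.516 CPM in Ppara-flox LPS hearts, and at 2859 to 3201 CPM in PPARα-deficient PBS hearts, against 0.0517 to 0.512 CPM in Ppara-flox PBS hearts. Its level thus also set the PPARα-deficient LPS libraries far apart from the PPARα-deficient PBS libraries, and the source of these reads and their part in the results were not tested. Libraries held 65569134 to 75436023 estimated counts, and low counts piled up at multiples of 4, so that depth is nearer to 16392283 to 18859005 read pairs. The column headers number the LPS libraries 1739 to 1769 and the PBS libraries 957 to 1075, and this numbering and the treatment cannot be told apart. The labels do not say that each library is a separate mouse, so p-values measure the spread between these libraries.

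The promoters of the 3 genes that moved most are shown first, with that of Ptgs1 for contrast with its inducible sister. Of the 9 genes, 8 had an entry in the RefSeq table of promoters for GRCm38.p6, and each line gives the 250 bases before the transcription start, 5′ to 3′ on the gene's strand. The windows lie at chr1:150099781-150100030 on the plus strand for Ptgs2, chr2:30903298-30903547 on the minus strand for Ptges, chr8:56294302-56294551 on the plus strand for Hpgd and chr2:36230176-36230425 on the plus strand for Ptgs1. RefSeq starts need not match the gene bounds of the GENCODE annotation given below. The Ptges window lies inside the GENCODE gene (30889471 to 30929863), and the Hpgd window stops short of the GENCODE start at 56294585. Capitals mark matches on either strand to the motifs described after the sequences.
Ptgs2: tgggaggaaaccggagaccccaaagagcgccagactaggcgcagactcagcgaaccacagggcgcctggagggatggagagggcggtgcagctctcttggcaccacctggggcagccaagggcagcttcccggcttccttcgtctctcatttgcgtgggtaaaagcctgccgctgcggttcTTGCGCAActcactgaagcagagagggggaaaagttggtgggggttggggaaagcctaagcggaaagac
Ptges: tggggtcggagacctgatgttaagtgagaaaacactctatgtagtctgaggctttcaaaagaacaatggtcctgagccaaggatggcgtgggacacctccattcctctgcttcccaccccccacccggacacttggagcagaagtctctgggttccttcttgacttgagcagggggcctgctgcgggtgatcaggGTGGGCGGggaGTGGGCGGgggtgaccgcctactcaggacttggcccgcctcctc
Hpgd: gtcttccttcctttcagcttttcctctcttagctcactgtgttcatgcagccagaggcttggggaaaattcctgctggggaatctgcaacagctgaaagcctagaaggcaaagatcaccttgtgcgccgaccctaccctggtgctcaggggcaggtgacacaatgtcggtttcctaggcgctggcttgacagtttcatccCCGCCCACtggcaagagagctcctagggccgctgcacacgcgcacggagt
Ptgs1: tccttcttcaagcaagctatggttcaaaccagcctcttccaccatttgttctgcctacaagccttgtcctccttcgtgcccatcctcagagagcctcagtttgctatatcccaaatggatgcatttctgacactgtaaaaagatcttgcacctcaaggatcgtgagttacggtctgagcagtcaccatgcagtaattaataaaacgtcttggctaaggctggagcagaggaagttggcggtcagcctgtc

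In all, 7 motifs, picked with these promoters in view, were searched on both strands of a window of 300 bases that adds the first 50 bases of the transcript, for 32851 promoters. The Ptgs2 window held TTGCGCAA, a palindromic match to the C/EBP motif TTGCNNAA, at positions -69 to -62 from the start. It also held the cAMP-response core ACGTCA at positions 13 to 18 and, overlapping it, the E-box CACGTG at positions 17 to 22. Among all promoters 10.8% held TTGCNNAA, 7.51% held ACGTCA and 7.15% held CACGTG. The Ptges window held the EGR1 and GC box motif GTGGGCGG 2 times, at -55 to -48 and -44 to -37, and the Hpgd window held the same motif once on its minus strand, at -50 to -43. That motif occurred in 4.81% of all promoters. Hpgd also had a match to TATAAA, which 13.6% of promoters held, at positions 5 to 10, and Ptges2 had CACGTG at -77 to -72. No window of the 8 genes matched an NF-κB motif (GGG, any 2 bases, then TTTCC), found in 1.63% of promoters, or the nuclear receptor core motif AGGTCA, found in 16.3%. Sequence outside these windows and looser forms of the motifs were not searched, so sites there would be missed. The Ptgs1 window matched none of the motifs. GC content was 61.6% for Ptgs2, 59.6% for Ptges, 56.8% for Hpgd and 48% for Ptgs1, beside a median of 52.4% over all promoters.

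In the LPS hearts of both genotypes the inducible enzymes of prostaglandin E2 synthesis rose and the degrading enzyme fell. Ptgs2 was 3.54-fold higher after LPS in PPARα-deficient hearts and 6.11-fold higher in Ppara-flox hearts, Ptges was 4.73-fold and 3.16-fold higher in those genotypes, and Hpgd was 5.41-fold and 3.16-fold lower. The constitutive cyclooxygenase Ptgs1, the prostacyclin and prostaglandin D synthases and both receptors did not pass the test in either genotype. With edgeR's quasi-likelihood test and Benjamini-Hochberg adjustment over all genes, 3 of the 9 were called at an adjusted p under 0.05 in PPARα-deficient hearts (2 higher, 1 lower), where 37.7% of all genes were called, and 4 of the 9 in Ppara-flox hearts (2 higher, 2 lower), where 39.3% were. The shares of called genes were thus near the background, and the median log2 fold change of the 9 was 0.02 in PPARα-deficient and -0.18 in Ppara-flox hearts, beside 0.01 over all genes in each. The PBS hearts served as the background of each LPS comparison and the 2 genotypes were compared with separate PBS groups.

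**Figure D1:**
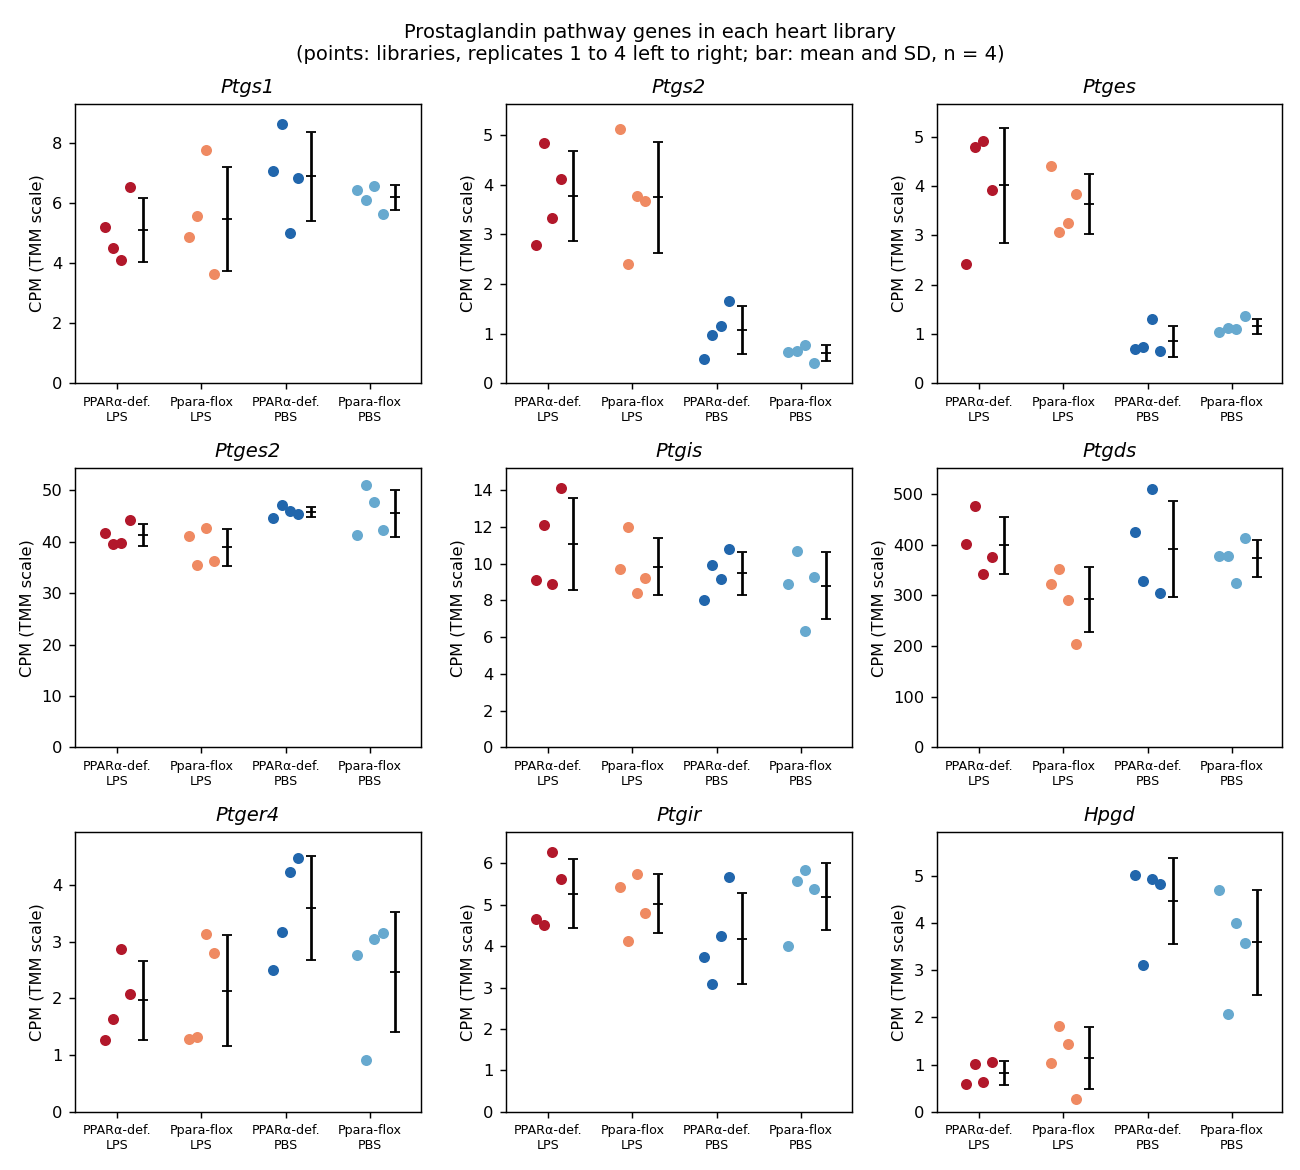
Level of each of the 9 genes in CPM (TMM-scaled) in every library, with 1 panel per gene, points for libraries and bars for the group mean and SD (n = 4), over an axis that starts at 0. Ptgs2 and Ptges sit higher and Hpgd lower in all LPS libraries than in any PBS library of the same genotype, and the other 6 genes differ less between groups.

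Ptgs2, which lies on chromosome 1 at 150100031 to 150108227 (GRCm38, GENCODE vM21, plus strand), reached 2.78, 4.85, 3.34 and 4.12 CPM in PPARα-deficient LPS hearts, against 0.481, 0.968, 1.16 and 1.65 CPM in PPARα-deficient PBS hearts. In Ppara-flox hearts it reached 5.13, 2.4, 3.77 and 3.68 CPM after LPS, against 0.626, 0.643, 0.775 and 0.398 CPM after PBS. Every LPS library stood above every PBS library, and the PPARα-deficient PBS libraries were spread more widely than the Ppara-flox ones. The log2 fold change was 1.82 ± 0.33 (SE, n = 4 each) in PPARα-deficient hearts (adjusted p = 0.000338, edgeR) and 2.61 ± 0.34 in Ppara-flox hearts (adjusted p = 1.43e-05). The PBS values rest on few reads, 28 to 115 estimated counts per library, which is nearer to 7 to 29 read pairs. The gene Ptgs2os lies on the opposite strand, starts 68 bases before the Ptgs2 start and runs away from it. Ptgs2os reached at most 0.157 CPM in an LPS library, was at 0 in all PBS libraries and was too low to be tested.

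Ptges (chromosome 2, 30889471 to 30929863, minus strand) stood at 2.41, 4.8, 4.92 and 3.91 CPM in PPARα-deficient LPS hearts, against 0.688, 0.74, 1.31 and 0.646 CPM in PPARα-deficient PBS hearts. The Ppara-flox values were 4.4, 3.06, 3.25 and 3.84 CPM after LPS, against 1.04, 1.11, 1.09 and 1.37 CPM after PBS. The groups did not overlap in either genotype. Its log2 fold change was 2.24 ± 0.27 in PPARα-deficient hearts (adjusted p = 5.38e-06, edgeR) and 1.66 ± 0.26 in Ppara-flox hearts (adjusted p = 8.54e-05). The libraries highest in Ptgs2 were not always those highest in Ptges: in PPARα-deficient LPS hearts replicate 2 led for Ptgs2 and replicate 3 for Ptges, while in Ppara-flox LPS hearts replicate 1 led for both.

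Hpgd (chromosome 8, 56294585 to 56321043, plus strand) moved the other way. It stood at 0.581, 1.02, 0.639 and 1.06 CPM in PPARα-deficient LPS hearts, against 5.02, 3.11, 4.94 and 4.84 CPM in PPARα-deficient PBS hearts. In Ppara-flox hearts it stood at 1.04, 1.81, 1.44 and 0.261 CPM after LPS, against 4.71, 2.08, 4.01 and 3.57 CPM after PBS. No LPS library reached the lowest PBS library, although replicate 2 of the Ppara-flox LPS hearts, at 1.81 CPM, came close to replicate 2 of the Ppara-flox PBS hearts. The log2 fold change was -2.44 ± 0.43 in PPARα-deficient hearts (adjusted p = 0.000253, edgeR) and -1.66 ± 0.42 in Ppara-flox hearts (adjusted p = 0.00438). The lowest value, 0.261 CPM in replicate 4 of the Ppara-flox LPS hearts, rests on 20 estimated counts, nearer to 5 read pairs.

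Ratios within a library were taken per kilobase of annotated exon, so that genes can be set beside each other. The level of Ptgs2 over that of Ptgs1 had a median of 0.612 (0.455 to 0.911) in PPARα-deficient LPS hearts, against 0.146 (0.0577 to 0.204) in PPARα-deficient PBS hearts, and 0.634 (0.364 to 0.892) in Ppara-flox LPS hearts, against 0.0859 (0.06 to 0.1) in Ppara-flox PBS hearts. Ptgs1 RNA per kilobase thus exceeded Ptgs2 RNA in all 16 libraries, LPS included. In CPM, without scaling to length, Ptgs2 exceeded Ptgs1 in replicate 2 of the PPARα-deficient LPS hearts (4.85 against 4.51). The same held in replicates 1 (5.13 against 4.87) and 4 (3.68 against 3.64) of the Ppara-flox LPS hearts. The order in these libraries rests on the exon lengths, and the annotation used for counting is not given. The level of Ptges over that of Hpgd had a median of 1.9 (1.58 to 3.3) in PPARα-deficient LPS hearts, against 0.0803 (0.0572 to 0.114) in PPARα-deficient PBS hearts. In Ppara-flox hearts that ratio had a median of 1.39 (0.724 to 6.29) after LPS, against 0.14 (0.0944 to 0.229) after PBS. The LPS and PBS ranges of these ratios did not overlap, and the high end of 6.29 came from the Ppara-flox LPS library with the lowest Hpgd.

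The other enzymes changed little. Ptgs1 (chromosome 2, 36230426 to 36252272, plus strand) had 5.19, 4.51, 4.11 and 6.54 CPM in PPARα-deficient LPS hearts, against 7.07, 8.62, 5.02 and 6.85 CPM in PPARα-deficient PBS hearts, with a log2 fold change of -0.44 ± 0.22 (adjusted p = 0.124, edgeR). In Ppara-flox hearts it had 4.87, 5.58, 7.78 and 3.64 CPM after LPS, against 6.44, 6.11, 6.58 and 5.64 CPM after PBS (log2 -0.18 ± 0.21, adjusted p = 0.557, edgeR). Its LPS and PBS values overlapped in both genotypes. Ptges2, a second, membrane-associated prostaglandin E synthase gene on chromosome 2 (32395896 to 32405772, plus strand), had 41.7, 39.5, 39.8 and 44.3 CPM in PPARα-deficient LPS hearts, against 44.7, 47.1, 45.9 and 45.4 CPM in PPARα-deficient PBS hearts. These groups did not overlap, yet the log2 fold change of -0.15 ± 0.08 did not pass the test (adjusted p = 0.188, edgeR). In Ppara-flox hearts Ptges2 had 41.2, 35.5, 42.7 and 36.3 CPM after LPS, against 41.3, 51, 47.7 and 42.3 CPM after PBS. There the values overlapped and the log2 fold change of -0.23 ± 0.08, a level 1.17-fold lower, passed narrowly (adjusted p = 0.0427, edgeR). That call ended without replicate 2 or 4 of the Ppara-flox LPS hearts (adjusted p = 0.128 and 0.106, edgeR) and without replicate 2 or 3 of the Ppara-flox PBS hearts (adjusted p = 0.141 and 0.0882).

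Ptgis, prostacyclin synthase (chromosome 2, 167191805 to 167240604, minus strand), averaged 11.1 ± 2.51 CPM in PPARα-deficient LPS hearts and 9.48 ± 1.19 CPM in PPARα-deficient PBS hearts (SD, n = 4 each), and 9.83 ± 1.53 CPM in Ppara-flox LPS hearts and 8.81 ± 1.81 CPM in Ppara-flox PBS hearts. Ptgds, the lipocalin-type prostaglandin D synthase (chromosome 2, 25466709 to 25470046, minus strand), was by far the most abundant of the 9 per kilobase. Its level averaged 242 CPM per kb in PPARα-deficient LPS hearts, 177 in Ppara-flox LPS hearts, 238 in PPARα-deficient PBS hearts and 226 ± 22.3 in Ppara-flox PBS hearts. The Ptgds values were 401, 476, 342 and 375 CPM in PPARα-deficient LPS hearts, against 425, 328, 510 and 305 CPM in PPARα-deficient PBS hearts, and 323, 352, 291 and 204 CPM in Ppara-flox LPS hearts, against 378, 377, 325 and 414 CPM in Ppara-flox PBS hearts. LPS and PBS values overlapped in both genotypes, with log2 fold changes of 0.02 ± 0.17 in PPARα-deficient hearts (adjusted p = 0.93, edgeR) and -0.35 ± 0.17 in Ppara-flox hearts (adjusted p = 0.118). The lowest Ptgds value, 204 CPM, came from replicate 4 of the Ppara-flox LPS hearts. That library was also the lowest of its group in Hpgd and Ptgs1 and in the summed markers of fibroblasts, smooth muscle and pericytes, endothelium, macrophages, monocytes, platelets and cardiomyocytes, and their part in the result was not tested.

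Neither receptor passed the test in the edgeR fit of all 16 libraries, although each did under another setting in PPARα-deficient hearts. Ptger4, the EP4 receptor for prostaglandin E2, had 1.27, 1.63, 2.87 and 2.08 CPM in PPARα-deficient LPS hearts, against 2.5, 3.17, 4.22 and 4.48 CPM in PPARα-deficient PBS hearts. Only the highest LPS library exceeded the lowest PBS library there, and the log2 fold change was -0.87 ± 0.39 with a 95% interval of -1.69 to -0.05 (adjusted p = 0.0888, edgeR). A fit of only these 8 libraries called it (adjusted p = 0.0372, edgeR). In Ppara-flox hearts Ptger4 had 1.29, 1.31, 3.14 and 2.8 CPM after LPS, against 2.76, 0.907, 3.04 and 3.15 CPM after PBS (log2 -0.21 ± 0.39, adjusted p = 0.716, edgeR). Ptger4 (chromosome 15, 5206661 to 5244187, minus strand) overlaps Ttc33 on the opposite strand over 11676 bases. The strand setting of the counting is not given in the sources used here, so reads of the overlap could come from either gene and its values are uncertain. Ptgir, the prostacyclin receptor (chromosome 7, 16906490 to 16910905, plus strand), averaged 5.26 ± 0.837 CPM in PPARα-deficient LPS hearts and 4.18 ± 1.1 CPM in PPARα-deficient PBS hearts (log2 0.33 ± 0.19, adjusted p = 0.193, edgeR), and 5.02 ± 0.719 CPM in Ppara-flox LPS hearts and 5.2 ± 0.82 CPM in Ppara-flox PBS hearts (log2 -0.05 ± 0.19, adjusted p = 0.868). Without replicate 4 of the PPARα-deficient PBS hearts Ptgir was called in PPARα-deficient hearts (log2 0.51, adjusted p = 0.0453, edgeR).

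**Figure D2:**
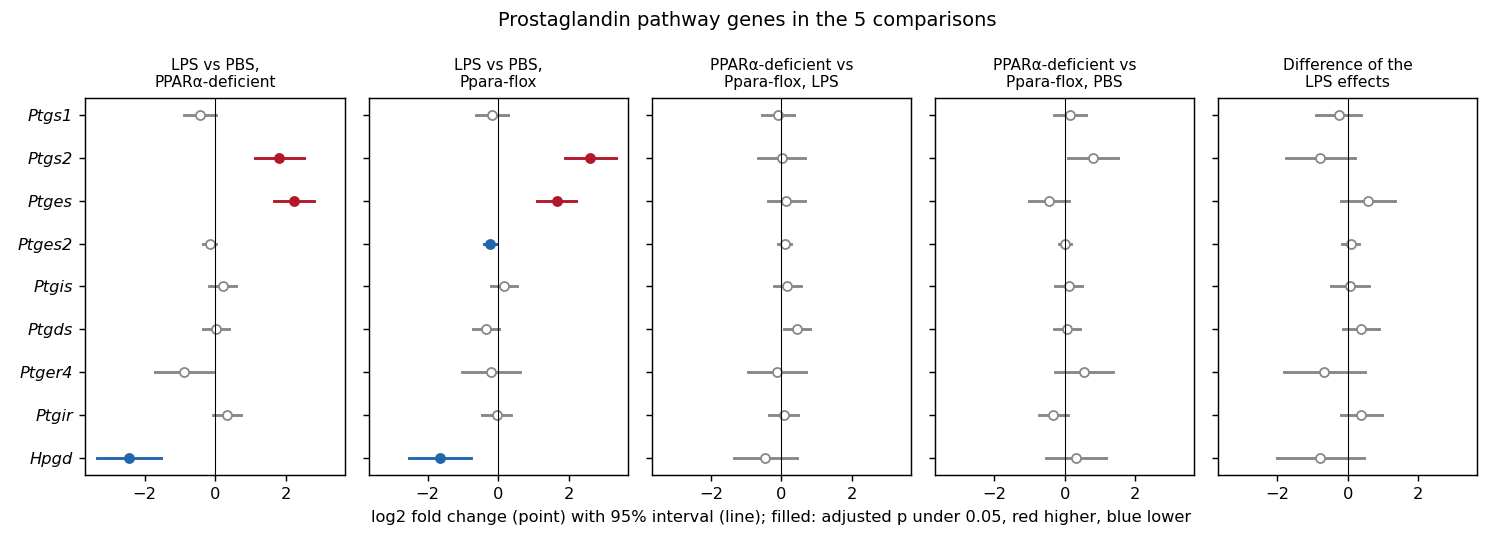
Log2 fold change of each gene with its 95% interval (edgeR, n = 4 libraries per group) for LPS over PBS in each genotype, for PPARα-deficient over Ppara-flox in each treatment and for the difference between both LPS effects, with filled points for calls. In the LPS comparisons the intervals of Ptgs2 and Ptges lie above 0 and those of Hpgd below 0 in both genotypes, and no gene was called between the genotypes.

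Between the genotypes no gene of the 9 was called, after LPS or after PBS. After LPS 1.23% of all genes were called and after PBS 0.433%, by edgeR. Of the 9, 1 had an unadjusted p under 0.05 in each comparison, and DESeq2 and limma-voom also called 0. Ptgs2 averaged 3.77 ± 0.902 CPM in PPARα-deficient LPS hearts and 3.74 ± 1.12 CPM in Ppara-flox LPS hearts (SD, n = 4 each), a log2 difference of 0.01 with a 95% interval of -0.66 to 0.68. For Ptges the difference after LPS was 0.14 (-0.39 to 0.67) and for Hpgd -0.46 (-1.35 to 0.43). The interval was widest for Hpgd. The gene with the lowest unadjusted p after LPS was Ptgds, at 399 ± 56.9 CPM in PPARα-deficient LPS hearts and 293 ± 64.3 CPM in Ppara-flox LPS hearts. Its log2 difference of 0.45 (0.08 to 0.81) did not survive adjustment (adjusted p = 0.383, edgeR), and without replicate 4 of the Ppara-flox LPS hearts it was 0.31 (adjusted p = 0.563). Atrial cardiomyocyte markers summed to 119 to 217 CPM in PPARα-deficient LPS hearts, against 72.6 to 84.6 CPM in Ppara-flox LPS hearts. After PBS they summed to 209 to 332 CPM in PPARα-deficient hearts, against 113 to 166 CPM in Ppara-flox hearts. Of the 3 atrial markers tested, 1 was called higher with the deletion after LPS and 0 after PBS. Their part in the Ptgds difference was not tested.

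After PBS the widest genotype difference was that of Ptgs2, which averaged 1.07 ± 0.484 CPM in PPARα-deficient PBS hearts and 0.611 ± 0.156 CPM in Ppara-flox PBS hearts (log2 0.80, 0.09 to 1.51, adjusted p = 0.785, edgeR). Of the 4 PPARα-deficient libraries 3 exceeded all Ppara-flox ones and 1 did not. The highest of them, replicate 4 at 1.65 CPM, also had the highest neutrophil marker sum of the PBS libraries, 13.2 CPM, whose part was not tested, and without it the log2 difference was 0.51. Ptger4 differed by 0.54 (-0.27 to 1.36), Ptges by -0.44 ± 0.26 (SE), Ptgir by -0.32 (-0.72 to 0.09) and Hpgd by 0.32 (-0.53 to 1.16). The remaining 4 differed by 0.15 or less.

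Whether LPS acted differently in the genotypes was tested as the difference between both LPS effects, PPARα-deficient minus Ppara-flox on the log2 scale. Of the 18713 genes 0 were called by edgeR (0%), 1075 had an unadjusted p under 0.05, limma-voom called 0 and DESeq2 55. None of the 9 was called by any of the 3 tools, and 0 had an unadjusted p under 0.05. The difference was -0.79 (95% interval -1.76 to 0.19) for Ptgs2, 0.58 (-0.19 to 1.35) for Ptges, -0.78 ± 0.58 (SE) for Hpgd and -0.67 (-1.82 to 0.49) for Ptger4. The larger LPS fold of Ptgs2 in Ppara-flox hearts, and the larger ones of Ptges and Hpgd in PPARα-deficient hearts, were therefore not distinguished from the spread between libraries.

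The order of the 9 by level per kilobase in Ppara-flox PBS hearts was Ptgds (226 ± 22.3 CPM per kb), Ptges2 (9 ± 0.905), Ptgis (3.43 ± 0.705), Hpgd (2.13 ± 0.661), Ptgs1 (1.59 ± 0.108), Ptgir (1.56 ± 0.246), Ptger4 (0.37 ± 0.158), Ptges (0.293 ± 0.0374) and Ptgs2 (0.133 ± 0.0342). Neighbours in this order that differed by less than the sum of their SDs were Ptgis and Hpgd, Hpgd and Ptgs1, Ptgs1 and Ptgir, and Ptger4 and Ptges. In Ppara-flox LPS hearts the means of Ptges (0.925 ± 0.155) and Ptgs2 (0.818 ± 0.244) stood above those of Hpgd (0.676 ± 0.394) and Ptger4 (0.321 ± 0.147). In PPARα-deficient LPS hearts the same 4 were at 1.02 ± 0.294, 0.824 ± 0.197, 0.491 ± 0.149 and 0.296 ± 0.104 CPM per kb. Ptges and Ptgs2 differed from Hpgd by less than the sum of the SDs in Ppara-flox LPS hearts, as did Ptgs2 in PPARα-deficient LPS hearts. Per kilobase Ptges lay under Hpgd in replicates 2 and 3 of the Ppara-flox LPS hearts (ratios 0.724 and 0.965). In CPM, without scaling to length, Ptges exceeded Hpgd in replicates 2 (3.06 against 1.81) and 3 (3.25 against 1.44). The order of Ptges and Hpgd in these libraries rests on the exon lengths.

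A wider list of 38 genes of prostanoid release, synthesis, transport, reception and breakdown placed these results in the pathway. Of its genes 36 were in the files and 28 were tested. In PPARα-deficient hearts 5 rose, 11 fell and 12 were not called after LPS, with a median log2 fold change of -0.30, and in Ppara-flox hearts 6 rose, 11 fell and 11 were not called, with a median of -0.39. Among all genes 19.4% were called higher and 18.3% lower in PPARα-deficient hearts, and 20.2% and 19.1% in Ppara-flox hearts. The lists were chosen with results of these libraries known, and these counts are descriptions.

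Among the receptors of other prostanoids Ptgfr and Tbxa2r fell in both genotypes. Ptgfr, the prostaglandin F2α receptor, averaged 0.319 ± 0.26 CPM in PPARα-deficient LPS hearts and 3.3 ± 1.4 CPM in PPARα-deficient PBS hearts (log2 -3.36 ± 0.66, adjusted p = 0.000679, edgeR), and 0.221 ± 0.162 CPM in Ppara-flox LPS hearts and 2.41 ± 0.698 CPM in Ppara-flox PBS hearts (log2 -3.43 ± 0.67). Tbxa2r, the thromboxane receptor, averaged 0.481 ± 0.254 CPM in PPARα-deficient LPS hearts and 2.77 ± 0.469 CPM in PPARα-deficient PBS hearts (log2 -2.52 ± 0.38, adjusted p = 5.71e-05, edgeR), and 0.498 ± 0.226 CPM in Ppara-flox LPS hearts and 2.38 ± 0.75 CPM in Ppara-flox PBS hearts (log2 -2.25 ± 0.38). Their LPS and PBS libraries did not overlap in either genotype. The lowest Ptgfr LPS library was at 0.117 CPM in PPARα-deficient and at 0 in Ppara-flox hearts. Both lie under the floor of 0.152 to 0.178 CPM that 3 read pairs give, so the size of the Ptgfr folds is uncertain. Ptger2, the EP2 receptor for prostaglandin E2, was not called, at 0.797 ± 0.428 CPM in PPARα-deficient LPS hearts and 0.293 ± 0.131 CPM in PPARα-deficient PBS hearts, and at 0.37 ± 0.121 CPM in Ppara-flox LPS hearts and 0.206 ± 0.217 CPM in Ppara-flox PBS hearts. Tbxas1, thromboxane synthase, fell by 1.29 in PPARα-deficient and by 1.07 in Ppara-flox hearts on the log2 scale. Hpgds, the hematopoietic prostaglandin D synthase, was called lower in both genotypes but averaged only 0.196 CPM in PPARα-deficient LPS hearts, against 1.21 CPM in PPARα-deficient PBS hearts, and 0.0618 CPM in Ppara-flox LPS hearts, against 0.681 CPM in Ppara-flox PBS hearts.

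Slco2a1, the transporter that takes prostaglandins into cells for breakdown, rose to 6.21 ± 0.298 CPM in PPARα-deficient LPS hearts, against 2.82 ± 0.716 CPM in PPARα-deficient PBS hearts (log2 1.14 ± 0.23, adjusted p = 0.000772, edgeR). In Ppara-flox hearts it rose to 7.83 ± 1.67 CPM after LPS, against 2.35 ± 0.721 CPM after PBS (log2 1.73 ± 0.23, adjusted p = 1.58e-05, edgeR). Slco2a1 thus did not move with Hpgd, which fell, nor with Ptgr2, a reductase of the products that Hpgd makes, which fell too. Other reductase genes of the wider list did not all fall with them. Ptgr1 was not called (log2 -0.21 in PPARα-deficient and -0.71 in Ppara-flox hearts). Zadh2 was called higher in Ppara-flox hearts (0.36) and not called in PPARα-deficient hearts (0.05). Ptgr2 fell to 97.8 ± 9.73 CPM in PPARα-deficient LPS hearts, against 196 ± 10.7 CPM in PPARα-deficient PBS hearts, and to 92.2 ± 8.26 CPM in Ppara-flox LPS hearts, against 184 ± 18.8 CPM in Ppara-flox PBS hearts (adjusted p = 4.37e-07 and 4.12e-07 in those genotypes, edgeR). The aldo-keto reductase gene Akr1b8 rose by a log2 of 1.03 in PPARα-deficient and 1.37 in Ppara-flox hearts.

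Among phospholipase genes of the wider list, Pla2g4e rose (log2 0.99 in PPARα-deficient and 0.65 in Ppara-flox hearts) as did Pla2g12a (0.45 and 0.70 in those genotypes), while Pla2g5 fell (-0.57 and -0.85). Pla2g4a, the cytosolic phospholipase best known for releasing arachidonic acid, was not called, with log2 fold changes of 0.35 in PPARα-deficient and 0.24 in Ppara-flox hearts. Pla2g2d was listed at 0 in all 4 Ppara-flox LPS libraries, at least 6.48-fold lower than the 1.07 CPM of Ppara-flox PBS hearts when set against a floor of 3 read pairs per library, and was also called lower in PPARα-deficient hearts (0.116 CPM after LPS, against 0.772 CPM after PBS). Ptges3l (-0.74 in PPARα-deficient and -0.82 in Ppara-flox hearts) and Prxl2b (-0.34 and -0.49), a prostamide and prostaglandin F synthase gene, fell as well. Genes called in 1 genotype alone were Pla2g6 (0.44), Cbr1 (-0.43) and Mgll (-1.44) in PPARα-deficient hearts and Pla2g15 (-0.46), Akr1b3 (-0.33), Zadh2 (0.36) and Anxa1 (0.43) in Ppara-flox hearts. Anxa1 kept its call in 18 of 18 alternatives, and the other 6 lost theirs in 2 to 11 of them. In the test of whether the LPS effect differed between the genotypes, edgeR called 0 of the 28, with 1 at an unadjusted p under 0.05, limma-voom called 0 and DESeq2 called 1.

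**Figure D3:**
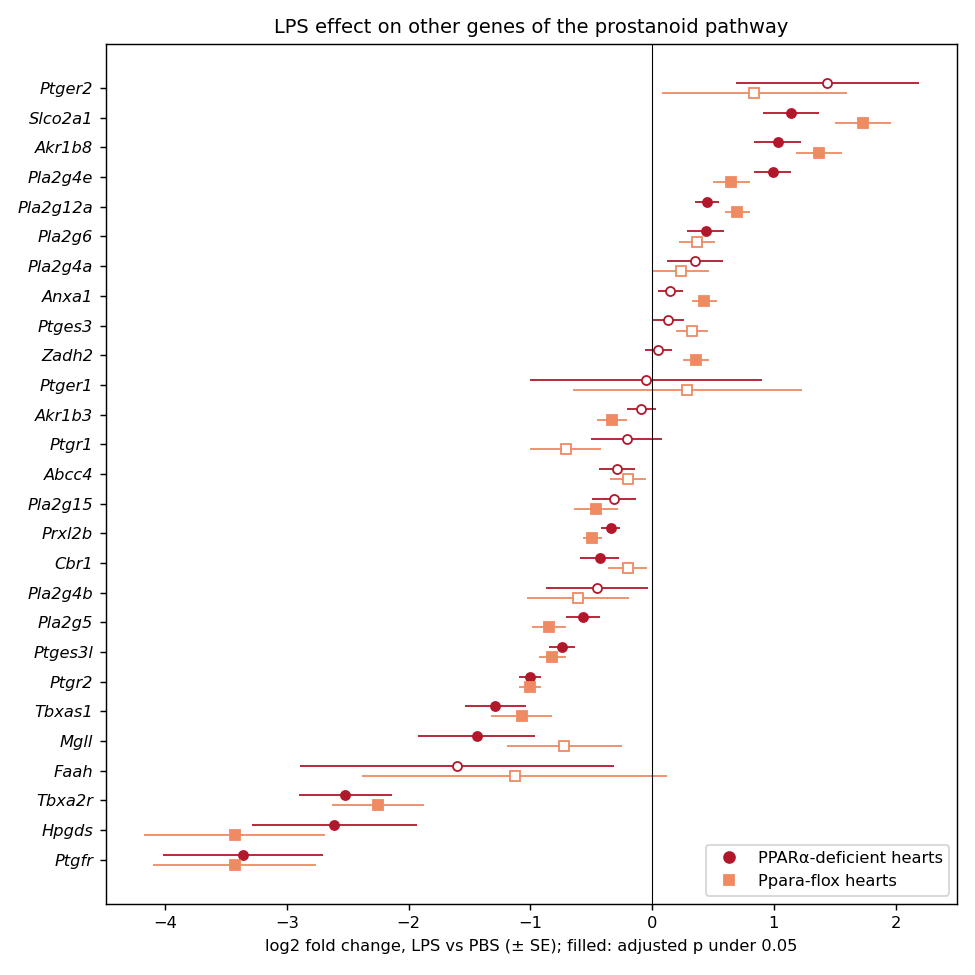
Log2 fold change of LPS over PBS, with bars for the standard error and filled points for an adjusted p under 0.05 (edgeR), for tested genes of the wider prostanoid list in PPARα-deficient and Ppara-flox hearts, leaving out Pla2g2d, which was at 0 in 1 group. Ptgfr and Tbxa2r lie lowest next to Hpgds in both genotypes, Slco2a1 and Akr1b8 lie above 0, and Ptger2, the highest in PPARα-deficient hearts alone, was not called in either genotype.

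Between the genotypes, 1 of the 28 was called after LPS, where 1.23% of all genes were. It was Pla2g2d, at 0.116 CPM in PPARα-deficient LPS hearts and at 0 in Ppara-flox LPS hearts (adjusted p = 0.0489, edgeR). Both lie under the floor of 0.152 to 0.178 CPM that 3 read pairs give, so no fold is given, and the call was lost in 12 of the 16 alternatives in which the gene could be fitted. After PBS 0 of the 28 were called by edgeR and limma-voom and 1 by DESeq2, with 2 at an unadjusted p under 0.05 in edgeR.

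Markers of several cell types moved with the LPS results, while other marker lists were mixed. The 9 neutrophil markers summed to 56.6 to 91.6 CPM in PPARα-deficient LPS hearts, against 4.46 to 13.2 CPM in PPARα-deficient PBS hearts, and to 64.9 to 116 CPM in Ppara-flox LPS hearts, against 5.1 to 6.31 CPM in Ppara-flox PBS hearts. Of the 8 tested 7 rose in each genotype, and Ly6g was at 0 in all PBS libraries. The 8 smooth muscle and pericyte markers summed to 500 to 555 CPM in PPARα-deficient LPS hearts, against 1073 to 1156 CPM in PPARα-deficient PBS hearts, and to 554 to 629 CPM in Ppara-flox LPS hearts, against 1118 to 1168 CPM in Ppara-flox PBS hearts. These fell in 6 and 7 of 8 tested markers in PPARα-deficient and Ppara-flox hearts. Fibroblast markers summed to 1082 to 1255 CPM in PPARα-deficient LPS hearts, against 1431 to 1702 CPM in PPARα-deficient PBS hearts, and to 934 to 1264 CPM in Ppara-flox LPS hearts, against 1523 to 1808 CPM in Ppara-flox PBS hearts. Of 8 fibroblast markers tested 1 rose and 6 fell in each genotype. Macrophage markers summed to 163 to 224 CPM in PPARα-deficient LPS hearts, against 223 to 250 CPM in PPARα-deficient PBS hearts, and to 148 to 188 CPM in Ppara-flox LPS hearts, against 181 to 241 CPM in Ppara-flox PBS hearts. Of 9 macrophage markers tested 1 rose, 4 fell and 4 were not called in each genotype. Endothelial markers summed to 820 to 863 CPM in PPARα-deficient LPS hearts, against 890 to 1086 CPM after PBS. In Ppara-flox hearts they summed to 868 to 1020 CPM after LPS, against 965 to 1035 CPM after PBS. Of 8 endothelial markers tested 1 rose, 2 fell and 5 were not called in each genotype. The 5 monocyte markers summed to 45.3 to 61.9 CPM in PPARα-deficient LPS hearts, against 55.3 to 75.8 CPM in PPARα-deficient PBS hearts, and to 42.5 to 71.6 CPM in Ppara-flox LPS hearts, against 60.4 to 89 CPM in Ppara-flox PBS hearts. Of these Ly6c2, Plac8 and Chil3 rose in each genotype (median log2 fold change of the 5 markers 1.49 in PPARα-deficient and 1.45 in Ppara-flox hearts), while Fn1, the most abundant, fell in both and Ccr2 fell in PPARα-deficient hearts. Cardiomyocyte markers summed to 35695 to 40115 CPM in PPARα-deficient LPS hearts, against 55673 to 63365 CPM in PPARα-deficient PBS hearts, and to 31584 to 37342 CPM in Ppara-flox LPS hearts, against 59976 to 67408 CPM in Ppara-flox PBS hearts. The part of these shifts in the rise of Ptgs2 and Ptges and in the fall of Hpgd, Ptgfr and Tbxa2r was not tested.

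**Figure D4:**
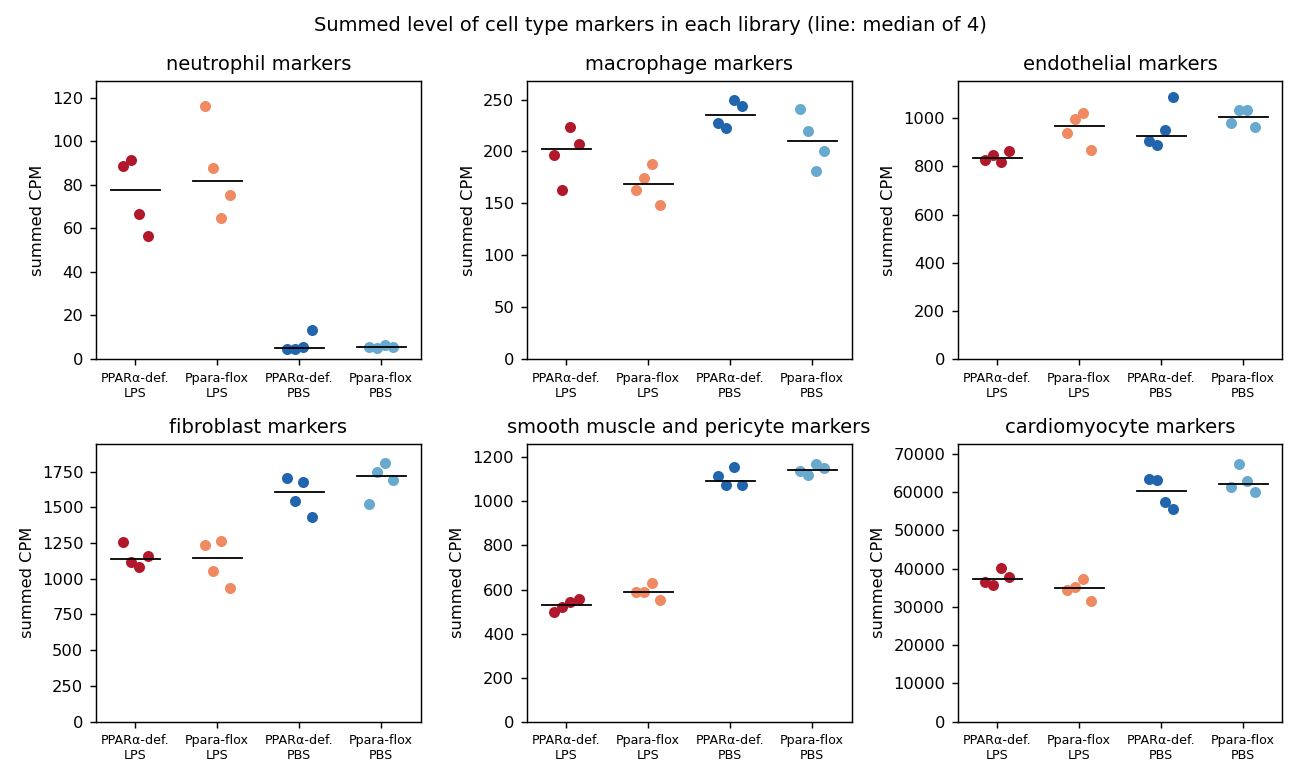
Summed CPM of marker lists for several cell types in every library, with points for libraries and lines for group medians, over axes that start at 0. Neutrophil markers are higher and smooth muscle and pericyte, fibroblast and cardiomyocyte markers lower in the LPS libraries of both genotypes.

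The genes whose log2 CPM followed each gene most closely over the 16 libraries, among 10554 searched, were picked by Pearson's r, given here as a description. The LPS and PBS libraries form separate clusters, so the value within groups is given beside it. Closest to Ptgs2 were the chemokine Cxcl1 (r = 0.97, within groups 0.81), the protease Adamts4 (0.96 and 0.70) and the adhesion molecule Vcam1 (0.96 and 0.71). Closest to Ptges were Atp6v1h (0.97 and 0.75), Steap4 (0.96 and 0.67) and C1s1 (0.96 and 0.63), and closest to Hpgd were Tmem44 (0.95 and 0.82), Pde7b (0.94 and 0.74) and Igfbp5 (0.94 and 0.77). Ptges2 was closest to Atad3a (0.93 and 0.89), Card19 (0.91 and 0.85) and Micos13 (0.90 and 0.82), and Ptgs1 to Lzts3 (0.89 and 0.85), Ddc (0.85 and 0.88) and Cul7 (0.85 and 0.85). For Ptgis, Ptgds, Ptger4 and Ptgir the leading genes were Atg16l1 (0.81 and 0.81), S100a1 (0.79 and 0.69), Rcor1 (0.88 and 0.86) and Smyd4 (0.81 and 0.90). Over all libraries these leading values were lower than those of Ptgs2, Ptges and Hpgd, but within groups those of Rcor1 and Smyd4 were higher. The leading genes were picked by r over these same libraries, so their values within groups cannot be compared between genes. No gene of the 3 leading lists was shared between Ptgs2, Ptges and Hpgd.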

How the data were processed

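Heart RNA of 16 libraries was read with a stranded kit, per the labels' protocols. The authors deposited estimated counts per gene symbol, as whole numbers not scaled between libraries. Tools listed in the submitters' processing notes, without roles, are StringTie 1.3.3b, HISAT, DESeq2 1.30.1 and fastp 0.23.2, with the build GRCm38. The counting tool, its annotation and strand setting are not given in the sources used here. Of 55421 table lines, 27 with symbols turned into dates were left out (0.0644% to 0.0861% of counts) and 116 repeated symbols were summed. Counts were rounded, filtered with filterByExpr, scaled by TMM and fitted with edgeR 4.0.16 (glmQLFit, glmQLFTest, R 4.3.3) as 4 group means over the 16 libraries, with Benjamini-Hochberg adjustment over the 18713 genes and calls at an adjusted p under 0.05. The code was tested on simulated data. A standard error is the log2 fold change divided by the root of F. Groups at 0 were set against a floor of 3 read pairs (12 estimated counts) per library, which covers counting error only.

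The genes, lists, motifs and tests were chosen with earlier results of these data known. Genes were named by rule: all 9 genes, every gene of the wider list that passed a test, and the 3 closest by correlation among genes with a mean log2 CPM of at least 2. Esr1, Ptgs2os, Pla2g4a, Ptger2, Ptgr1, genes overlapping the prostaglandin genes, the marker genes and the genes of the closing section were named outside it. Alternatives were limma-voom 3.58.1, DESeq2 1.42.0, RLE and upper-quartile scaling, other filters, an adjusted p under 0.01, counts divided by 4, the replicate number as a block, a fit of only the 8 libraries of a comparison, and omission of each library in turn. Coordinates come from GENCODE vM21 on GRCm38. Tables and figures used Python 3.11.15, pandas 2.3.3, numpy 2.4.6 and matplotlib 3.10.9.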

Additional observations from a re-analysis of the deposited data

Results flagged for a closer look

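A library far from the others of its group was found in 2 of 36 groups of values (9 genes in 4 groups), and chance gives about 1 in 20. In PPARα-deficient PBS hearts Ptges was highest in replicate 3, at 1.31 CPM, beside 0.646 to 0.74 CPM in the other libraries. In the same group Hpgd was lowest in replicate 2, at 3.11 CPM, beside 4.84 to 5.02 CPM. Both genes kept their LPS calls in PPARα-deficient hearts without any single library.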

How the results depend on the processing

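The LPS calls of Ptgs2, Ptges and Hpgd held in 18 of 18 alternatives in both genotypes. Their log2 fold changes ranged from 1.58 to 2.11, 2.13 to 2.53 and -2.58 to -2.30 in PPARα-deficient hearts and from 2.42 to 2.77, 1.56 to 1.75 and -1.97 to -1.33 in Ppara-flox hearts. The Ppara-flox LPS call of Ptges2 was lost in 8 of 18 alternatives (adjusted p up to 0.141, edgeR). In PPARα-deficient hearts Ptger4 passed with the replicate block (adjusted p = 0.0219, edgeR) and in a fit of the 8 libraries (0.0372), and Ptgir passed without replicate 4 of the PBS hearts (log2 0.51, adjusted p = 0.0453). In the wider list, LPS calls lost in some of 18 alternatives were those of Cbr1 (11), Pla2g15 (10), Akr1b3 (8), Mgll (6), Pla2g6 (5) and Zadh2 (2). The LPS call of Pla2g2d in PPARα-deficient hearts was lost in 1 of 17 alternatives, the cut at an adjusted p under 0.01 (adjusted p = 0.0119, edgeR).

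DESeq2 called 444 genes between genotypes after LPS (231 by edgeR), 183 after PBS (81) and 55 for the interaction (0), and 2, 1 and 1 of the wider list in those comparisons. Fewer genes were called between genotypes after LPS at an adjusted p under 0.01 (126) and in a fit of the 8 libraries (141). For the interaction 4 genes were called with a minimum of 1 CPM in 8 libraries and 4 with counts divided by 4. The single wider-list call after LPS between genotypes became 0 with limma-voom, no filter, the 1 CPM minimum, an adjusted p under 0.01, the replicate block, counts divided by 4 and the 8-library fit. The cause was not tested. Leaving out each library gave 0 to 4 interaction genes (4 without replicate 1 of the PPARα-deficient LPS hearts) and 0 to 1 wider-list genes between genotypes after LPS.

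Reversals occurred only in log2 values that no test called. Upper-quartile scaling gave -0.0211 for Ptgds after LPS in PPARα-deficient hearts. Leaving out each library gave -0.0789 to 0.176 for that value and -0.156 to 0.0355 for Ptgir after LPS in Ppara-flox hearts. Between genotypes after LPS it gave -0.25 to 0.12 for Ptgs1, -0.15 to 0.20 for Ptgs2, -0.36 to 0.13 for Ptger4 and -0.0283 to 0.139 for Ptgir. Between genotypes after PBS it gave -0.0375 to 0.0652 for Ptges2, -0.0244 to 0.214 for Ptgis and -0.0822 to 0.173 for Ptgds, and for the interaction -0.0740 to 0.195 for Ptgis.

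Samples sharing a replicate number did not deviate together: 0 of 24 pairs had a correlation over 0.1 (-0.0658 to 0.0746). With the replicate block 4 and 3 of the 9 genes were called after LPS in PPARα-deficient and Ppara-flox hearts, 0 in the other comparisons, and Ptgs2 differed by -0.00772 between genotypes after LPS. A block for the header number series among the PBS libraries, chosen after seeing the data, gave 0 of the 9 genes, 95 genes in all and 0.73 for Ptgs2. Depth limits Ptgs2 and Ptges in PBS hearts and Hpgd in LPS hearts most.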

Other observations

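Genes of the lipoxygenase and epoxygenase branches, which use the same arachidonic acid as the cyclooxygenases, were read from a list of 15, of which 13 were tested. Between genotypes, where none of the 9 prostaglandin genes was called, 2 of the 13 fell after LPS (background 1.23% of genes) and 1 after PBS (0.433%), by edgeR. Alox5, the lipoxygenase that starts leukotriene synthesis, averaged 1.52 ± 0.47 CPM in PPARα-deficient LPS hearts and 4.11 ± 0.359 CPM in Ppara-flox LPS hearts (SD, n = 4 each; log2 -1.43 ± 0.20, adjusted p = 0.000542, edgeR). After PBS it averaged 7.4 ± 1.49 CPM in PPARα-deficient hearts and 13.7 ± 1.63 CPM in Ppara-flox hearts (log2 -0.89 ± 0.19, adjusted p = 0.0515, edgeR). The genotypes did not overlap in either treatment. Alox5 also fell after LPS in both genotypes, by 2.28 in PPARα-deficient and by 1.73 in Ppara-flox hearts on the log2 scale, and these effects were not shown to differ (difference -0.55 ± 0.27, adjusted p = 0.891, edgeR).

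Ephx2, the soluble epoxide hydrolase that clears epoxides of arachidonic acid, averaged 91.6 ± 4.64 CPM in PPARα-deficient LPS hearts and 178 ± 22.6 CPM in Ppara-flox LPS hearts (log2 -0.96 ± 0.12, adjusted p = 0.00014, edgeR). After PBS it averaged 120 ± 7.16 CPM in PPARα-deficient hearts and 203 ± 33.4 CPM in Ppara-flox hearts (log2 -0.76 ± 0.11, adjusted p = 0.00228, edgeR). The genotype calls of Alox5 after LPS and of Ephx2 after LPS held in 18 of 18 alternatives, and that of Ephx2 after PBS in 19 of 19. Alox15, another lipoxygenase, reached 1.37 to 4.27 CPM in PPARα-deficient LPS hearts, at least 17.4-fold higher than in PPARα-deficient PBS hearts, where it was at 0 in all libraries against a floor of 3 read pairs per library. In Ppara-flox hearts it reached 0.861 to 2.83 CPM after LPS, against 0 to 0.155 CPM after PBS (adjusted p = 0.000227, edgeR). Macrophage markers summed to 163 to 224 CPM in PPARα-deficient LPS hearts, against 148 to 188 CPM in Ppara-flox LPS hearts, and their part in the Alox5 difference was not tested.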
